A study of Capra hircus with 29 samples.

Results

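The genes described here are those of the route that wakes and grows the oocyte's follicle through PI3K, FOXO3 and mTOR: KIT, PIK3CA, PDPK1, AKT1, FOXO3, TSC1, TSC2, MTOR and RPS6KB1. They were chosen by symbol, and the 9 symbols were carried by 10 of the 21343 genes in the oocyte table, because RPS6KB1 stood on 2 genes. The second of these, described in the table as ribosomal protein S6 kinase beta-1-like, is called RPS6KB1-like below. The pathway annotation in the table placed 10 of the 10 genes in PI3K-Akt signaling, 8 in mTOR signaling and 4 in FoxO signaling.

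KIT is the receptor on the oocyte for KIT ligand, which the surrounding somatic cells make. When it is engaged, PI3K makes the lipid signal that brings AKT to the membrane, where PDPK1 phosphorylates it. Active AKT sends FOXO3 out of the nucleus, which releases the brake on resting follicles, and it also restrains the TSC1 and TSC2 complex, so that RHEB can turn on mTOR and the S6 kinase raises translation. Most of these steps are changes of phosphorylation, which RNA does not show, and the values below are RNA levels alone.

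Gene expression was measured by RNA-seq in 29 oocyte samples of the Ji'ning grey goat breed. Goats with large litters formed the high fertility group and goats with small litters the low fertility group, and within each group oocytes were taken from large, medium and small follicles. The study sorted the follicles by size in millimetres and names no class of resting follicles. The waking of resting follicles was therefore not compared here. The 6 groups were HLO, HMO and HSO (high fertility; large, medium and small follicles) and LLO, LMO and LSO (low fertility), with 5 samples each and 4 in HSO. Where all values of a group are listed, they follow the sample numbers 1 to 5, and HSO has no number 2. By the study's methods the oocytes of several goats were combined by follicle size, which is stated outright for the high fertility group, and the combined oocytes were then divided into samples of a few oocytes each. The samples of a group are therefore divisions of 1 pool rather than separate animals, and p-values measure the spread between these divisions, not that between goats.

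Levels are FPKM, fragments scaled to the length of the transcript and to the size of the library, so they are corrected for gene length. By the study's methods the oocyte mRNA was enriched with oligo(dT) beads. Genes are therefore compared below as levels of the RNA captured, and whether capture differed between genes was not tested. The table holds no read counts, so the depth behind each value is unknown from it. The samples had 6646 to 8689 genes above 0.5 FPKM. Markers of the oocyte were high, with 12 of 15 symbols at a median above 0.5 FPKM and a summed level of 614 to 9135 FPKM per sample. Of the granulosa and cumulus list 3 of 13 symbols found were above that limit (SERPINE2, KITLG and GJA1), AMH and AMHR2 were listed at 0 in 29 of 29 samples, and the summed level was 5.12 to 34.9 FPKM. Of the theca and stroma list 4 of 9 were above it (STAR, DCN, ACTA2 and COL1A2), and the summed level was 9.81 to 61.7 FPKM. STAR had a median of 18.0 FPKM and DCN one of 7.26 FPKM. Of the leukocyte and endothelial lists 0 of 6 and 0 of 5 were above the limit. In pools of whole oocytes, fewer oocytes and less RNA per oocyte cannot be told apart.

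KIT stood first among the members with a median of 5.16 FPKM over the 29 samples, followed by FOXO3 with 2.76, TSC1 with 1.54 and PIK3CA with 1.21 FPKM. RPS6KB1 (0.609 FPKM) and PDPK1 (0.567 FPKM) formed the next step, and MTOR (0.276 FPKM) and TSC2 (0.258 FPKM) the one after it. RPS6KB1-like had a median of 0.0432 FPKM and AKT1 a median of 0. Within samples KIT exceeded FOXO3 in 27 of 29, and PIK3CA exceeded RPS6KB1 in 27 of 29. FOXO3 exceeded TSC1 in 17 of 29 samples and TSC1 exceeded PIK3CA in 19 of 29, so the order of these neighbours changed from sample to sample. RPS6KB1 exceeded PDPK1 in 14 of 29, and MTOR exceeded TSC2 in 15 of 29, so neither pair had a fixed order. The receptor thus lay above 84.8% of all genes in the table by its median, FOXO3 above 79.3%, and MTOR above 58.3%. These shares count 4171 genes listed at 0 in every sample. Among the 9692 genes above 0.5 FPKM in 4 or more samples, KIT lay above 66.5%, FOXO3 above 54.5% and MTOR above 8.80%.

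**Figure D1:**
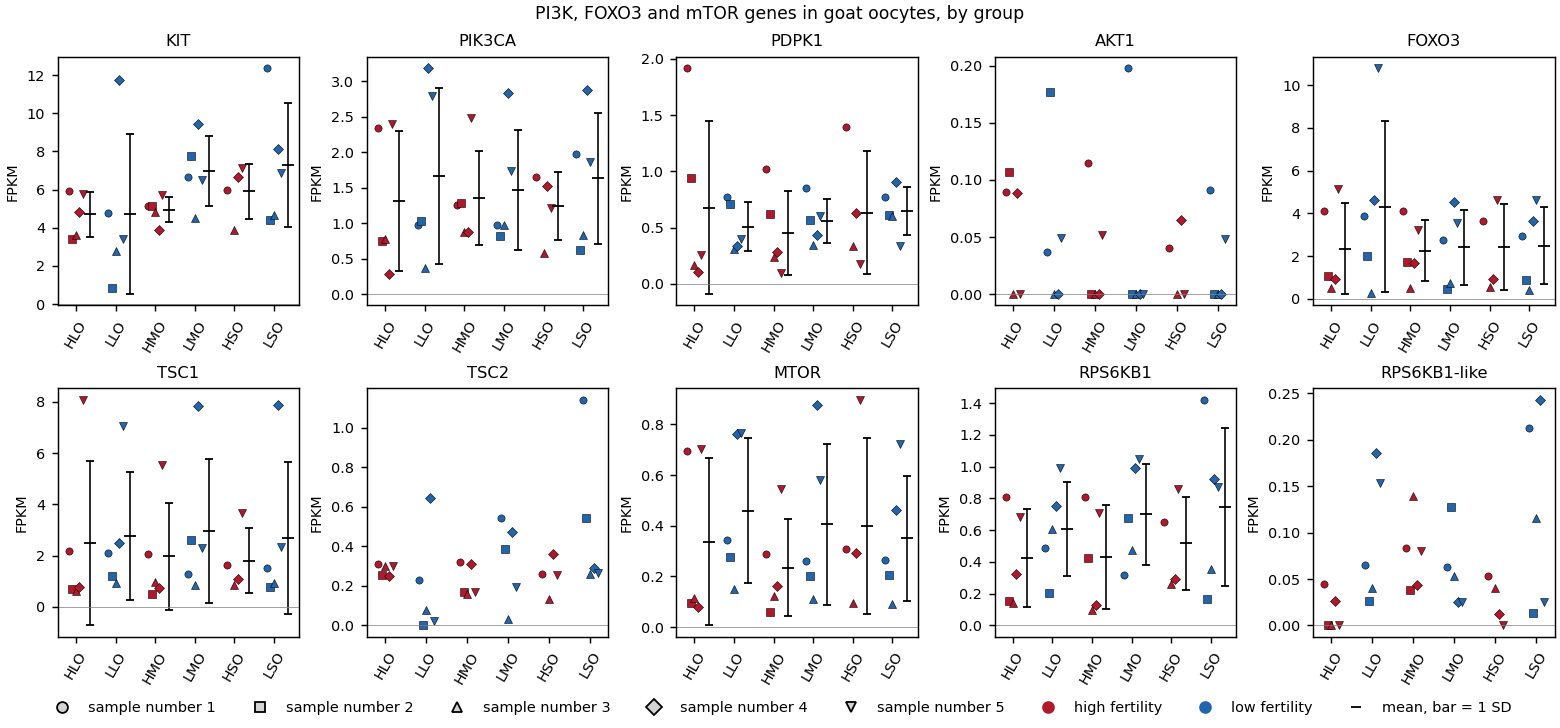
Each panel plots the FPKM of 1 member gene (vertical axis, its own scale from about 0) in the 6 groups. Points are samples, with the marker giving the sample number in its label and the colour the fertility group; the dash and bar are the mean and 1 SD, left out for the 3 genes listed at 0 in some sample. In every panel the 6 groups overlap, and in TSC1 1 sample stands alone at 7.08 to 8.09 FPKM in HLO, LLO, LMO and LSO.

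KIT (ENSCHIG00000022287) was present in each of the 29 samples, from 0.860 to 12.4 FPKM. In oocytes of large follicles it was 5.93, 3.41, 3.62, 4.83 and 5.79 FPKM in HLO and 4.77, 0.860, 2.76, 11.8 and 3.39 FPKM in LLO. In medium follicles it was 5.15, 5.16, 4.85, 3.91 and 5.69 FPKM in HMO and 6.68, 7.77, 4.49, 9.44 and 6.50 FPKM in LMO. In small follicles it was 5.99, 3.89, 6.64 and 7.14 FPKM in HSO and 12.4, 4.42, 4.68, 8.15 and 6.85 FPKM in LSO. Both the lowest and the second highest KIT value lay in LLO, so this group spanned most of the range of the series, whereas the 5 HMO samples lay close together. The mean FPKM was 4.72 ± 1.18 for HLO, 4.95 ± 0.657 for HMO and 5.91 ± 1.43 for HSO, and 4.71 ± 4.18 for LLO, 6.98 ± 1.82 for LMO and 7.29 ± 3.23 for LSO (± SD over 5 samples, 4 for HSO). The ligand gene KITLG, usually assigned to granulosa cells, had a median of 3.78 FPKM (1.10 to 9.95 FPKM) in these oocyte samples, and KIT exceeded it in 17 of 29. KIT and KITLG were only loosely related across the 29 samples (Spearman's rho = 0.186, Pearson's r = 0.149).

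PIK3CA (ENSCHIG00000016154), the catalytic p110 alpha subunit of PI3K, ranged from 0.285 to 3.18 FPKM. Its lowest, median and highest values were 0.285, 0.776 and 2.39 FPKM in HLO and 0.364, 1.02 and 3.18 FPKM in LLO. They were 0.870, 1.25 and 2.48 FPKM in HMO and 0.820, 0.973 and 2.83 FPKM in LMO. They were 0.586, 1.37 and 1.65 FPKM in HSO and 0.615, 1.87 and 2.87 FPKM in LSO. Each high fertility group thus overlapped the low fertility group of the same follicle size over most of its range. Of the catalytic subunits of this class, PIK3CA was the highest in 26 of 29 samples, with a median share of 61.1% of the 3 genes summed, and PIK3CD (median 0.535 FPKM) was the highest in the other 3. PIK3CB had a median of 0.294 FPKM.

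PDPK1 (ENSCHIG00000015335), the kinase that phosphorylates AKT at the membrane, ranged from 0.0965 to 1.91 FPKM. In large follicles it was 1.91, 0.938, 0.163, 0.109 and 0.260 FPKM in HLO and 0.774, 0.712, 0.313, 0.334 and 0.401 FPKM in LLO. In medium follicles it was 1.02, 0.624, 0.235, 0.283 and 0.0965 FPKM in HMO and 0.852, 0.567, 0.345, 0.431 and 0.603 FPKM in LMO. In small follicles it was 1.40, 0.334, 0.628 and 0.175 FPKM in HSO and 0.775, 0.610, 0.604, 0.904 and 0.337 FPKM in LSO. The first value of each high fertility group, that of the sample numbered 1, was the highest of its group, and the rest of the group reached down below the low fertility samples.

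AKT1 (ENSCHIG00000023255) was listed at 0 in 16 of 29 samples and did not exceed 0.198 FPKM in the others. AKT2 had a median of 0.0689 FPKM and was listed at 0 in 7 samples. Whether a value of 0 in this table is a failed estimate or a low RNA level was not tested. MLST8, which encodes a subunit of both mTOR complexes, and AKT1S1 also had a median of 0. They were listed at 0 in 20 and 24 samples. Both genes were picked after their values were seen, so they do not show how common such values are.

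FOXO3 (ENSCHIG00000018293), the transcription factor that holds resting follicles back, ranged from 0.287 to 10.8 FPKM, the widest spread of the members tested on the log2 scale (SD 0.85, above that of 78.1% of the genes tested). In large follicles it was 4.12, 1.06, 0.494, 0.922 and 5.16 FPKM in HLO and 3.87, 2.02, 0.287, 4.63 and 10.8 FPKM in LLO. In medium follicles it was 4.13, 1.74, 0.525, 1.67 and 3.21 FPKM in HMO and 2.76, 0.465, 0.729, 4.53 and 3.54 FPKM in LMO. In small follicles it was 3.63, 0.569, 0.913 and 4.62 FPKM in HSO and 2.93, 0.884, 0.398, 3.63 and 4.62 FPKM in LSO. Every group held samples below 1 FPKM and samples above 3 FPKM. The means were 2.35 ± 2.13 in HLO, 2.26 ± 1.42 in HMO, 2.43 ± 2.001 in HSO, 2.40 ± 1.77 in LMO and 2.49 ± 1.80 FPKM in LSO, and 4.32 ± 3.99 FPKM in LLO, where 1 sample reached 10.8 FPKM (SD, n = 5, 4 in HSO).

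FOXO1, a close relative of FOXO3, had a median of 17.1 FPKM (9.03 to 30.6 FPKM) and was the highest FOXO gene in 29 of 29 samples. FOXO1 took a median of 86.5% of the summed level of FOXO1, FOXO3 and FOXO4, and FOXO3 took 13.5% (2.12 to 26.0%). FOXO4 was listed at 0 in 23 samples. The spread of FOXO1 on the log2 scale was smaller, with an SD of 0.37. The 2 genes were moderately related across the 29 samples (Spearman's rho = 0.529, Pearson's r = 0.551).

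**Figure D2:**
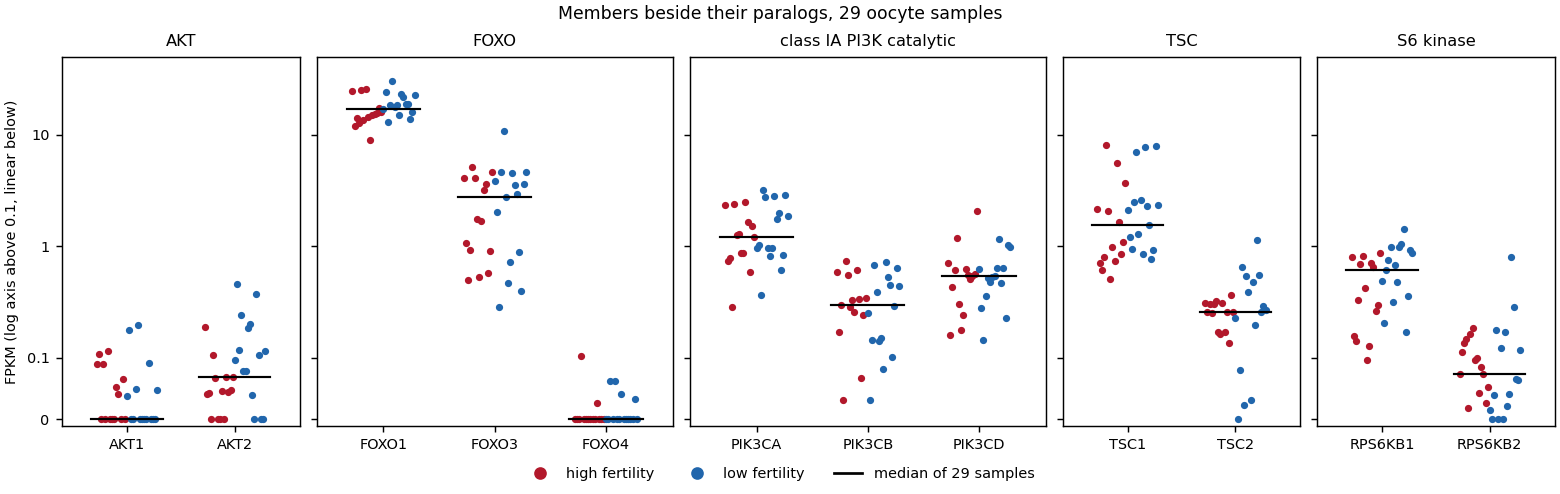
The FPKM of members and of paralogs of theirs in the 29 samples, in 5 panels by gene family, on a shared axis that is logarithmic above 0.1 FPKM and linear below. Each point is a sample, coloured by fertility group, and the line is the median. FOXO1 (median 17.1) lies above FOXO3 (2.76) in every sample, and the medians of AKT1 (0) and AKT2 (0.0689) lie below 0.1 FPKM.

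TSC1 and TSC2 encode the partners of the complex that turns RHEB off. TSC1 (ENSCHIG00000018208) exceeded TSC2 (ENSCHIG00000014230) in 29 of 29 samples and made up a median of 86.6% of their sum. In large follicles TSC1 was 2.18, 0.711, 0.611, 0.797 and 8.09 FPKM in HLO and 2.11, 1.21, 0.951, 2.48 and 7.08 FPKM in LLO. In medium follicles it was 2.08, 0.510, 0.978, 0.729 and 5.55 FPKM in HMO and 1.27, 2.61, 0.847, 7.85 and 2.29 FPKM in LMO. In small follicles it was 1.63, 0.852, 1.09 and 3.67 FPKM in HSO and 1.54, 0.771, 0.925, 7.87 and 2.34 FPKM in LSO. Each group except HSO held a single sample above 5 FPKM: HLO 5, HMO 5, LLO 5, LMO 4 and LSO 4. The other 24 samples reached at most 3.67 FPKM, so a group mean of TSC1 rested on its highest sample.

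TSC2 was listed at 0 in 1 sample (LLO 2) and reached 1.14 FPKM in LSO 1. Its lowest, median and highest values were 0.250, 0.301 and 0.312 FPKM in HLO and 0, 0.0796 and 0.644 FPKM in LLO. The HLO values lay within the range of LLO. They were 0.161, 0.170 and 0.321 FPKM in HMO and 0.0318, 0.387 and 0.543 FPKM in LMO, and 0.136, 0.257 and 0.362 FPKM in HSO and 0.258, 0.289 and 1.14 FPKM in LSO. The third subunit of the complex, TBC1D7, was higher than both, with a median of 34.7 FPKM (14.9 to 67.2). RHEB, the GTPase that the complex inhibits and that turns on mTOR, had a median of 9.05 FPKM (2.91 to 34.3 FPKM), and TSC1 exceeded it in 2 of 29 samples.

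MTOR (ENSCHIG00000019866), the kinase of both mTOR complexes, did not exceed 0.897 FPKM. In large follicles it was 0.697, 0.0936, 0.116, 0.0782 and 0.701 FPKM in HLO and 0.342, 0.276, 0.151, 0.763 and 0.765 FPKM in LLO. In medium follicles it was 0.290, 0.0583, 0.121, 0.163 and 0.544 FPKM in HMO and 0.259, 0.201, 0.112, 0.877 and 0.582 FPKM in LMO. In small follicles it was 0.308, 0.0941, 0.292 and 0.897 FPKM in HSO and 0.266, 0.207, 0.0913, 0.464 and 0.721 FPKM in LSO. The groups overlapped at each follicle size. RPTOR, which defines mTOR complex 1, had a median of 1.503 FPKM, and RICTOR, which defines complex 2, a median of 0.825 FPKM. RPTOR exceeded RICTOR in 21 of 29 samples, and both exceeded MTOR in 29 of 29. Across samples MTOR ran closer to RICTOR (Spearman's rho = 0.843) than to RPTOR (0.627), a difference that was not tested.

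RPS6KB1 (ENSCHIG00000005906), the kinase of ribosomal protein S6 that mTOR complex 1 activates, ranged from 0.0952 to 1.42 FPKM. In large follicles it was 0.808, 0.155, 0.140, 0.326 and 0.685 FPKM in HLO and 0.486, 0.204, 0.609, 0.752 and 0.991 FPKM in LLO. In medium follicles it was 0.809, 0.425, 0.0952, 0.126 and 0.707 FPKM in HMO and 0.315, 0.674, 0.475, 0.992 and 1.05 FPKM in LMO. In small follicles it was 0.654, 0.259, 0.294 and 0.861 FPKM in HSO and 1.42, 0.170, 0.353, 0.920 and 0.869 FPKM in LSO. The mean of the high fertility group was below that of the low fertility group at each follicle size, with overlap each time: 0.423 ± 0.308 against 0.608 ± 0.294, 0.433 ± 0.326 against 0.701 ± 0.318, and 0.517 ± 0.291 against 0.747 ± 0.497 FPKM (SD, n = 5, 4 in HSO). RPS6KB1 exceeded its paralog RPS6KB2 (median 0.0736 FPKM) in 27 of 29 samples.

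RPS6KB1-like (ENSCHIG00000017293) did not exceed 0.243 FPKM and was listed at 0 in HLO 2, HLO 3, HLO 5 and HSO 5. In large follicles it was 0.0444, 0, 0, 0.0262 and 0 FPKM in HLO and 0.0655, 0.0268, 0.0405, 0.186 and 0.153 FPKM in LLO, and 1 HLO sample lay within the range of LLO while the other 4 lay below it. Only uniquely matching reads were kept by the authors, so any reads that match both genes would be missing from both. How many such reads there were is unknown, and the levels of the 2 genes are uncertain to that extent.

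High and low fertility were compared within each follicle size to ask which members differ between the populations in oocytes of the same stage. No member passed the test. Genes were tested by limma on log2(FPKM + 1) where 4 or more of the compared samples exceeded 0.5 FPKM, and p-values were adjusted over all genes tested by the Benjamini-Hochberg method. This left 7 of the 10 member genes in large follicles (not TSC2, AKT1 and RPS6KB1-like) and 6 in medium and small follicles (nor MTOR there).

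In large follicles 0 of 7 members passed an adjusted p of 0.05, as did 0% of the 8328 genes tested, and 0 of 7 passed an unadjusted p of 0.05, against 4.14% of all genes (2.98% higher and 1.16% lower in HLO). The smallest unadjusted limma p was that of FOXO3 (0.361), whose log2 difference, high minus low, was -0.55 (95% interval -1.80 to 0.70; limma adjusted p = 0.847). KIT differed by 0.26 (95% interval -0.76 to 1.28; limma adjusted p = 0.897). These intervals are wide: they hold a log2 difference of 1 or more in at least 1 direction. MTOR differed by -0.14 (95% interval -0.59 to 0.31; limma adjusted p = 0.874), and PIK3CA by -0.19 (95% interval -1.02 to 0.64; limma adjusted p = 0.912).

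In medium follicles 0 of 6 members passed after adjustment, against 0.0715% of 8390 genes, and 0 of 6 before it, against 8.67% (5.09% higher and 3.58% lower in HMO). KIT had the smallest unadjusted limma p (0.157), with 5 of 5 HMO samples below 4 of the 5 LMO samples and a log2 difference of -0.40 (95% interval -0.97 to 0.18; limma adjusted p = 0.665). By an exact two-sided permutation test of this gene alone, p was 0.0476; 9.96% of the genes tested in medium follicles had an exact p under 0.05. RPS6KB1 differed by -0.26 (95% interval -0.68 to 0.16; limma adjusted p = 0.697), TSC1 by -0.42 (95% interval -1.44 to 0.60; limma adjusted p = 0.804) and FOXO3 by 0.00 (95% interval -0.93 to 0.93; limma adjusted p = 0.998).

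In small follicles 0 of 6 members passed after adjustment, against 0.0119% of 8376 genes, and 0 of 6 before it, against 4.41% (2.04% higher and 2.36% lower in HSO). RPS6KB1 had the smallest unadjusted limma p (0.473), and its log2 difference was -0.17 (95% interval -0.69 to 0.34; limma adjusted p = 0.910). KIT differed by -0.21 (95% interval -0.97 to 0.56; limma adjusted p = 0.927) and PDPK1 by -0.06 (95% interval -0.54 to 0.43; limma adjusted p = 0.967). Among the members that passed the filter, the exact permutation test gave an unadjusted p under 0.05 for 0 of 7 in large, 1 of 6 in medium (KIT) and 0 of 6 in small follicles, against 3.85, 9.96 and 5.13% of all genes tested. RPS6KB1-like, which did not pass the filter and was listed at 0 in 3 of 5 HLO samples, had an exact permutation p of 0.0317 in large follicles. The smallest p the permutations can give is 0.00794. The groups overlapped for 7 of 7, 6 of 6 and 6 of 6 members tested, while they did not overlap for 0.432, 1.7 and 2.05% of all genes.

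**Figure D3:**
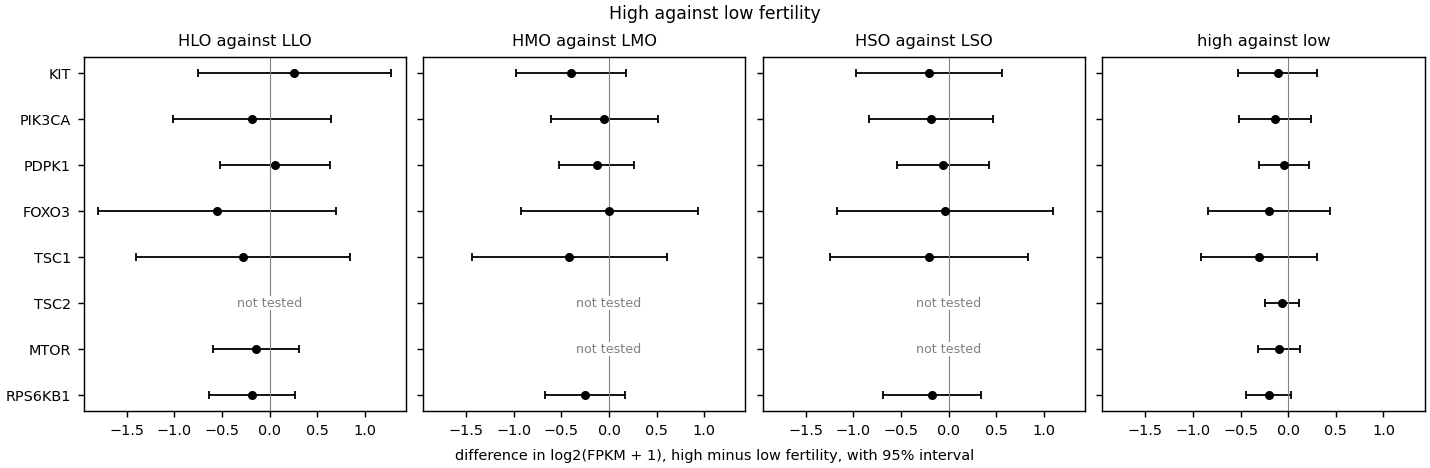
Differences in log2(FPKM + 1) between high and low fertility (horizontal axis, high minus low) with 95% intervals from limma, for the members tested, in large, medium and small follicles and over all 29 samples. Every interval drawn includes 0; RPS6KB1 over all samples comes closest to leaving it (-0.44 to 0.03).

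Over all 29 samples, with follicle size as a covariate, 8 member genes were tested. None passed after adjustment (0.0103% of 9692 genes did), and none passed an unadjusted p of 0.05, against 9.99% of all genes. The estimates of 8 of 8 were below 0, that is lower in high fertility, as were those of 57.2% of all genes tested. The median log2 difference was -0.12 for the members and -0.04 for all genes. Most members varied together across samples (below), so these are not 8 separate results. The median number of genes above 0.5 FPKM in a sample was also lower in high fertility at each follicle size. It was 7376 in HLO and 7699 in LLO, 7532 in HMO and 8047 in LMO, and 8055 in HSO and 8359 in LSO. Its part in the signs of the 8 estimates was not tested. RPS6KB1 came closest: its log2 difference was -0.21 (95% interval -0.44 to 0.03; limma adjusted p = 0.554). Over the alternative fits its adjusted p ranged from 0.269 to 0.716, and its unadjusted limma p fell under 0.05 in 4 of them. TSC1 differed by -0.30 (95% interval -0.91 to 0.30; limma adjusted p = 0.764) and FOXO3 by -0.20 (95% interval -0.84 to 0.44; limma adjusted p = 0.885). KIT differed by -0.11 (95% interval -0.53 to 0.31; limma adjusted p = 0.917). Within single follicle sizes 5 of 7, 5 of 6 and 6 of 6 members were lower in high fertility, against 57.6%, 56.5% and 50.8% of all genes.

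Follicle sizes were compared to ask whether the members differ between large, medium and small follicles. With fertility as a covariate, limma's F-test called 0 of 8 members after adjustment and 0 of 8 before it, against 0% and 1.66% of all genes. KIT had the smallest unadjusted p (0.114): its means in large, medium and small follicles were 4.71, 6.98 and 7.29 FPKM in the low fertility group and 4.72, 4.95 and 5.91 FPKM in the high fertility group, within the spread of the samples. Whether the fertility difference changes with follicle size was tested as an interaction. It was called for 0 of 8 members after adjustment and 0 of 8 before it, against 0% and 7.89% of all genes, and the smallest unadjusted p was that of TSC2 (0.241). When the 6 groups were ordered by their mean, no neighbours in that order differed by more than the larger of their SDs for any of the 10 member genes, but neighbours in such an order are the closest groups by construction. Between the fertility groups of 1 follicle size the gap between the means exceeded both SDs for 0 of 7 members tested in large, 1 of 6 in medium and 0 of 6 in small follicles, against 7.05, 13.8 and 10.2% of all genes. The 1 was KIT, at 4.95 ± 0.657 FPKM in HMO and 6.98 ± 1.82 in LMO (SD, n = 5).

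Most members varied together across samples. The number of genes above 0.5 FPKM in a sample moved with them. Across the 29 samples Spearman's rho of the member with this number was 0.795 for KIT, 0.787 for PIK3CA, 0.751 for FOXO3, 0.747 for MTOR, 0.734 for RPS6KB1, 0.692 for TSC1 and 0.517 for TSC2. Pearson's r on log2(FPKM + 1) was 0.797 for KIT, 0.727 for FOXO3 and 0.602 for TSC1. Spearman's rho was lower for PDPK1 (0.234), and for RPS6KB1-like (0.278) and AKT1 (0.0853), which were low or listed at 0 in many samples. Without the 2 samples farthest from the median number, LLO 2 and LLO 3, rho was 0.745 for KIT, 0.748 for FOXO3 and 0.410 for TSC2. Such a relation was common: 44.7% of the genes tested had a rho above 0.5, with a median of 0.44 over 9692 genes. The part of this number in the members' levels was not tested.

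**Figure D4:**
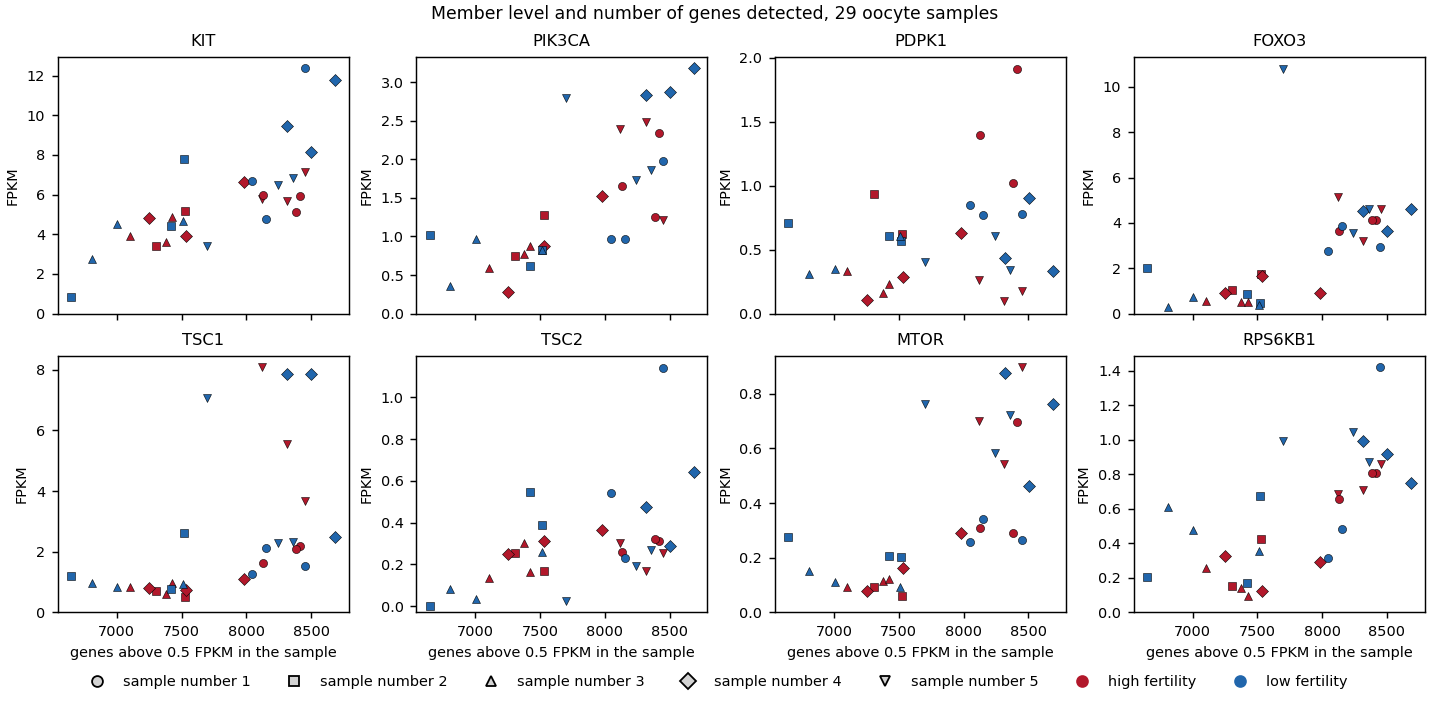
The FPKM of 8 members (vertical axes, own scales) against the number of genes above 0.5 FPKM in the same sample (horizontal axis), 29 samples, with markers for the sample number and colours for the fertility group. FOXO3 lies at or below 2.02 FPKM in every sample with fewer than 7699 genes above the limit, while PDPK1 shows no such slope (rho 0.234).

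The number in a sample's label, 1 to 5, recurs in all groups, except that HSO has no sample numbered 2, and the labels do not say what it stands for. FOXO3 differed with it, at 2.76 to 4.13 FPKM in the 6 samples numbered 1, 0.465 to 2.02 in the 5 numbered 2, 0.287 to 0.729 in the 6 numbered 3, 0.913 to 4.63 in the 6 numbered 4 and 3.21 to 10.8 FPKM in the 6 numbered 5. MTOR was 0.544 to 0.897 FPKM in the samples numbered 5 and 0.0913 to 0.151 in those numbered 3. PDPK1 was 0.774 to 1.91 FPKM in the samples numbered 1, which were the highest of their group in 5 of 6 groups, and 0.0965 to 0.603 FPKM in those numbered 5. AKT1 was above 0 in each of the 6 samples numbered 1 and listed at 0 in each of the 6 numbered 3. The samples numbered 3 had 6806 to 7513 genes above 0.5 FPKM, those numbered 2 had 6646 to 7527, and those numbered 1 and 5 had 8047 to 8450 and 7699 to 8452. The samples numbered 1 and 5 thus had similar numbers of genes. Between them PDPK1 was lower in the sample numbered 5 in 6 of 6 groups (median 0.938 FPKM in those numbered 1 and 0.298 in those numbered 5), and MTOR was higher in it in 6 of 6 (0.299 and 0.711 FPKM). FOXO3 was higher in it in 5 of 6 (3.75 and 4.62 FPKM). The samples numbered 4 had 7251 to 8689 genes above 0.5 FPKM. In rising order of that count they were HLO 4, HMO 4, HSO 4, LMO 4, LSO 4 and LLO 4. In the same order MTOR was 0.0782, 0.163, 0.292, 0.877, 0.464 and 0.763 FPKM. FOXO3 was 0.922, 1.67, 0.913, 4.53, 3.63 and 4.63 FPKM. In this order every high fertility sample came before every low fertility sample. The count and the fertility group therefore cannot be told apart in the samples numbered 4, and neither relation was tested. For the low FOXO3 and MTOR values of the samples numbered 2 and 3, the number of a sample and its number of detected genes cannot be told apart.

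Among the members themselves, TSC1 and MTOR were the most alike across the 29 samples (rho = 0.865), followed by FOXO3 and MTOR (0.843), PIK3CA and FOXO3 (0.793) and PIK3CA and MTOR (0.786). TSC1 and TSC2, although partners in a complex, had a rho of 0.160. TSC2 was closest to KIT (0.623), and PDPK1 had no rho above 0.479 with any member. Taken as deviations from the group means, the rho of TSC1 and MTOR was 0.856 and that of FOXO3 and MTOR 0.887. These are descriptions over samples that share their preparation, and carry no p.

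**Figure D5:**
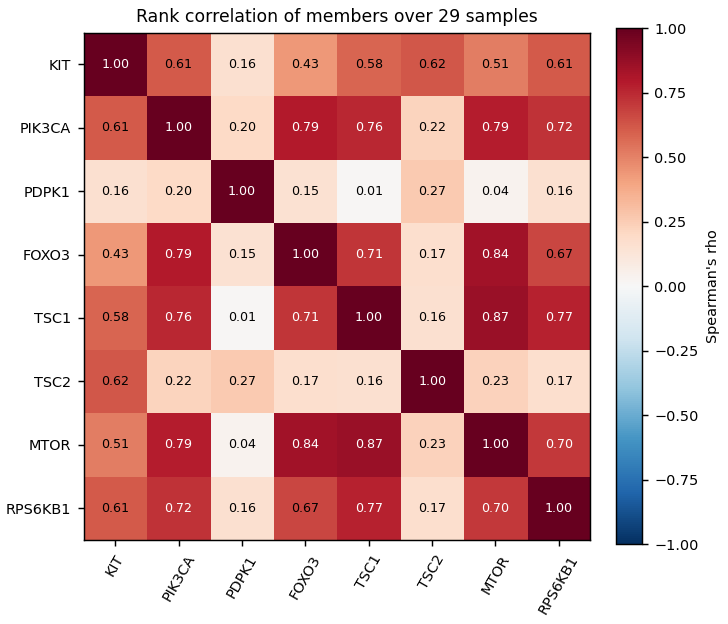
Spearman's rho between 8 members over the 29 samples, as colour and number in each cell. PIK3CA, FOXO3, TSC1, MTOR and RPS6KB1 form a block of values from 0.67 to 0.87, while PDPK1 (at most 0.27 here) and TSC2 (0.62 with KIT) stand outside it.

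The genes most like each member across the 29 samples were taken from all genes tested. For KIT they were XPO4 (rho = 0.900) and WDPCP (0.894), and for PIK3CA PAN3 (0.942) and CLTC (0.927), the clathrin heavy chain. For FOXO3 they were PSMD9 (0.931), a proteasome subunit, and HDAC3 (0.930), a histone deacetylase. For TSC1 they were DAAM1 (0.941) and RABGAP1 (0.937), for MTOR CPSF6 (0.935), which acts in cleavage of pre-mRNA ends, and AGBL2 (0.933). RPS6KB1 was most like POLR3C (0.880) and LRRCC1 (0.864), TSC2 like MPND (0.798) and ENDOG (0.787), and RPS6KB1-like LOC102179113 (0.740). PDPK1 again had the weakest matches, FLII (0.666) and TMEM52 (0.665). None of these genes is in the pathway lists. The values depend on how the samples are scaled. With median-of-ratios factors rho was lower for every pair named here except RPS6KB1-like and LOC102179113 (0.804). It was 0.710 for KIT and XPO4, 0.718 for PIK3CA and CLTC, and 0.694 for RPS6KB1 and POLR3C. For FOXO3 and PSMD9 it was 0.919.

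The other genes of the pathway were read from 11 lists by role. The highest of the ligands and receptors was EGFR (median 25.3 FPKM, 1 of 7 genes with this symbol), ahead of KITLG and of GRB2 (2.87). Of the PI3K subunits it was PIK3C2A (3.68), of a different class, and of the regulatory subunits PIK3R1 (1.45 FPKM). Among the partners of FOXO the 14-3-3 gene YWHAZ, whose protein holds phosphorylated FOXO in the cytoplasm, had a median of 40.4 FPKM. Its relative YWHAB had 16.7 FPKM. Of FOXO targets GADD45A (15.0), CDKN1B (6.12) and SOD2 (3.996 FPKM) led. The Ragulator genes LAMTOR4 (325), LAMTOR5 (204) and LAMTOR2 (179 FPKM), which anchor mTOR complex 1 at the lysosome, were far above MTOR itself. LAMTOR5 is 1 of 3 genes with this symbol. LAMTOR1, the subunit that holds Ragulator to the membrane, had a median of 0.542 FPKM and was listed at 0 in 7 samples. Far above MTOR too were the outputs RPS6 (297 FPKM for its highest gene) and EIF4E (249.6), the cap-binding protein.

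Of these genes without the members, 1 of 89 tested in large follicles passed an unadjusted p of 0.05, 10 of 89 in medium follicles (4 higher and 6 lower in HMO) and 3 of 91 in small follicles (1 higher and 2 lower in HSO). These are shares of 1.12, 11.2 and 3.30%, beside 4.14, 8.67 and 4.41% of all genes. None passed after adjustment (smallest adjusted p 0.828, 0.162 and 0.880), so none is called changed. Over all 29 samples 6 of 100 passed before adjustment, 0 of them higher in high fertility, beside 9.99% of all genes.

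In large follicles the 1 gene was CDKN1B, the cell cycle inhibitor p27 and a FOXO target, at 6.63 ± 1.97 FPKM in HLO and 3.33 ± 2.27 in LLO (log2 difference 0.95, SE 0.428, limma adjusted p = 0.828). In medium follicles RHEB was 22.8, 9.18, 11.4, 16.4 and 25.1 FPKM in HMO and 10.3, 11.9, 6.45, 9.39 and 7.51 in LMO (log2 difference 0.76, SE 0.342, limma adjusted p = 0.565). LARP1, which binds the messages that mTOR controls, was 3.67 FPKM in HMO and 1.91 in LMO on average, for 1 of 2 genes with this symbol. The apoptosis ligand FASLG, a FOXO target, was 0.490 ± 0.0505 FPKM in HMO and 1.10 ± 0.385 in LMO (-0.48, SE 0.160, limma adjusted p = 0.358). GADD45A, a stress gene and FOXO target, was 11.1 ± 4.96 and 21.2 ± 7.96 FPKM (-0.89, SE 0.356, limma adjusted p = 0.519), and the pseudokinase TRIB2 was 0.230 ± 0.192 and 0.672 ± 0.298 FPKM (-0.43).

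RPS6, the substrate of the S6 kinase, cannot be read as 1 gene here, since several genes carry its symbol. Of these, ENSCHIG00000008209 had a mean of 62.9 FPKM in HMO against 5.05 in LMO (log2 difference 2.94, limma adjusted p = 0.162), yet 5.53 in HSO against 62.9 in LSO (-2.26, limma adjusted p = 0.880). ENSCHIG00000019971 had 6.68 against 1.38 FPKM in medium follicles (1.47). The highest RPS6 gene, ENSCHIG00000010409, was 269 FPKM in HMO and 348 in LMO. Any reads that match several of these copies would have been left out, so their differences are uncertain. In small follicles SESN1, a sestrin that restrains mTOR complex 1, was 8.64 ± 3.22 FPKM in HSO and 4.16 ± 2.36 in LSO (0.94, SE 0.393), and its relative SESN2 was 0.441 ± 0.119 and 1.12 ± 0.606 FPKM (-0.52, SE 0.209), both with a limma adjusted p of 0.880.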

How the data were processed

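RNA-seq of 29 oocyte samples was used, in 6 groups taken from the labels. After alignment to the goat genome, the authors retained uniquely matching reads, took out duplicates (picard) and estimated FPKM per gene with Cufflinks on the Ensembl annotation; the deposited table holds these FPKM for each sample. The aligner and genome build are not given in the sources used here, so no coordinates are given. FPKM are not counts, so no count test was run and no counting interval is given. Columns were matched to samples by name, and 1 column of per-sample values that matched no sample was left out. Of 21343 genes, 3738 share a symbol with another gene.

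Levels, shares and correlations are descriptions. Differences were tested on log2(FPKM + 1), which understates the change of low genes, with limma (moderated test, intensity trend), for genes with 4 or more fitted samples above 0.5 FPKM. P-values are two-sided and adjusted by the Benjamini-Hochberg method over all genes tested. Single genes were also tested by exact permutation of the group labels. The procedure was also run on simulated data, in which each gene varied independently with a normal spread. That run does not show how the tests behave under the variation that genes share across these samples.

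The members and the pathway and marker lists were chosen with earlier results of these data known. The genes named are the members, their paralogs, RHEB, RPTOR, RICTOR and KITLG, and in each list up to 3 with the highest median. To these were added up to 3 per direction with the lowest p among those under an unadjusted p of 0.05 in each fertility comparison, and the 2 genes most like each member. MLST8, AKT1S1, LAMTOR1 and the markers were named after their values were seen. Results on some other genes that the rule covers are not reported here.

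Alternatives were a pseudocount of 0.1, no filter, median-of-ratios factors, a filter at 1 FPKM, a replicate block, exact permutation, and each sample left out in turn. The number of genes above 0.5 FPKM as a covariate was added after the data were seen. Python 3.11.15 with numpy 2.4.6, pandas 2.3.3 and scipy 1.17.1, R 4.3.3 with limma 3.58.1 and matplotlib 3.10.9 were used.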

Additional observations from a re-analysis of the deposited data

Results flagged for a closer look

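In 7 of 60 sets of values, each 1 member gene in 1 group, a sample lay far from the others (Dixon's test, of which chance marks about 1 in 20 sets of normal values). Over all genes tested in the 29 samples 10.5% of the sets were marked. The 60 sets also hold AKT1 and RPS6KB1-like, which did not pass the filter for testing. The 2 shares are near each other but cover unlike sets of genes. Of the 7 sets, 4 were of TSC1. HLO 5 had 8.09 FPKM against 0.611 to 2.18 in the other HLO samples, and LLO 5 had 7.08 FPKM against 0.951 to 2.48. LMO 4 had 7.85 FPKM against 0.847 to 2.61, and LSO 4 had 7.87 FPKM against 0.771 to 2.34. The 4 samples thus had nearly the same level of TSC1. PIK3CA was 2.48 FPKM in HMO 5 against 0.870 to 1.28 in the rest of HMO. AKT1 was 0.177 FPKM in LLO 2 against 0 to 0.0489, and 0.198 FPKM in LMO 1 where the other 4 samples were listed at 0, a pattern that this test always marks.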

How the results depend on the processing

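No member passed an adjusted p of 0.05 in any of the 6 comparisons under any alternative run. The count of members past an unadjusted p of 0.05, 0 as reported, became 1 in these cases. RPS6KB1-like passed without a filter in large follicles (log2 difference -0.11, limma adjusted p = 0.838) and over all samples (-0.07, limma adjusted p = 0.597). KIT passed in medium follicles by the exact permutation test (p = 0.0476). RPS6KB1 passed over all samples with the replicate block (-0.22, limma adjusted p = 0.270), with the number of genes above 0.5 FPKM as a covariate (-0.20, limma adjusted p = 0.269, chosen after the data were seen), without LLO replicate 2 (limma adjusted p = 0.644) and without LSO replicate 2 (limma adjusted p = 0.427). KIT passed between follicle sizes without LLO replicate 4 (limma adjusted p = 0.934). With each sample left out these 2 counts ranged from 0 to 1.

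Signs turned for values that had passed no test. PDPK1 in large follicles was -0.13 with a pseudocount of 0.1, and TSC2 over all samples was 0.00590. With median-of-ratios factors PIK3CA in medium follicles was 0.0158 and FOXO3 in small follicles 0.0115. With the added covariate FOXO3 was -0.0129 in medium and 0.15 in small follicles. With 1 sample left out, FOXO3 ranged from -0.26 to 0.25 in medium and from -0.35 to 0.27 in small follicles, PIK3CA from -0.40 to 0.00686 in large and from -0.20 to 0.12 in medium, TSC1 from -0.72 to 0.0457 in large and from -0.48 to 0.18 in small, KIT from -0.0719 to 0.62 in large and PDPK1 from -0.26 to 0.0841 in small follicles. FOXO3 in large follicles stayed below 0, between -0.97 (LLO replicate 3 left out) and -0.17 (LLO replicate 5 left out). KIT in large follicles turned without LLO replicate 2, PIK3CA without LLO replicate 4 and TSC1 without LLO replicate 5; TSC1 in small follicles turned without LSO replicate 4.

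Of the pathway genes named at an unadjusted p of 0.05, CDKN1B, LARP1, TRIB2, GADD45A, SESN1, SESN2 and ENSCHIG00000008209 (RPS6, small follicles) each lost it with some sample left out; CDKN1B in large follicles ranged from 0.71 to 1.15 (log2).

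Counts over all genes moved more. In large, medium and small follicles the unadjusted counts of 345, 727 and 369 became 609, 1302 and 743 without a filter and 777, 1301 and 881 with the added covariate. The adjusted count in medium follicles, 6, became 0 without a filter, 13 with median-of-ratios factors, 23 with the covariate and 160 without HMO replicate 2. In small follicles the adjusted count of 1 became 2 with a pseudocount of 0.1. Over all samples 968 became 1502 with the covariate, and the adjusted count of 1 became 0 without a filter and with median-of-ratios factors. Between follicle sizes 161 became 364 without a filter and 303 with the covariate. For the interaction 765 became 1197 and 1654, and the adjusted count of 0 became 2 with median-of-ratios factors and 52 with the covariate. With 1 sample left out the unadjusted counts ranged from 152 to 879, 398 to 1046, 153 to 643, 721 to 1330, 85 to 489 and 593 to 1109 in the 6 comparisons. The cause was not tested.

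The replicate numbers were also used as a block, although the labels do not pair the samples. Same-numbered samples deviated together in part: the correlation of their deviations was -0.05 to 0.52 in large, -0.41 to 0.65 in medium and -0.48 to 0.71 in small follicles, and 5 of 10, 7 of 10 and 3 of 9 samples correlated best with their own number. With the block the unadjusted counts over all genes were 684, 1376 and 788 in large, medium and small follicles, 1461 over all samples, 277 between follicle sizes and 1405 for the interaction. The adjusted counts were 1, 127 and 0 in the 3 follicle sizes and 70 for the interaction.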
